A study of Mus musculus with 2 samples.

Results

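Barcodes rich in Ppy, the transcript of pancreatic polypeptide, and poor in the other islet hormones were examined in single-cell RNA-sequencing of mouse islets. A barcode is the tag shared by all transcripts captured in one droplet, and it usually stands for one cell. Of 8926 barcodes with more than 2500 detected genes and under 10% of their molecules in mitochondrial genes, 379 were members. A member held at least 150 molecules of Ppy per 10000, under 300 of Ins1 and Ins2 together, under 100 of Gcg and under 40 of Sst. Molecules are counted as unique molecular identifiers (UMIs), so that copies made by PCR count once.

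One library came from each group, and each library held 150 islets pooled from 4 mice aged 5 weeks on the C57BL/6N background. The control mice, labelled wildtype, were littermates without Cre, and whether they carried loxP alleles was not given in the sources used here. The other mice, labelled TBL/RBKO and called TBL/RβKO here, had Cre recombinase in the Ins1 locus together with floxed alleles of Tbl1x and Tbl1xr1. Recombination is thereby directed to cells in which Ins1 is active, that is to β-cells. Both groups were still normoglycemic at this age, and all islets spent a night in culture (37 °C, 10% serum) before they were dissociated. With 1 library per group, no spread between mice could be measured. Every interval below is a 95% interval that covers counting error only, and it is exact except for differences of shares, where it is approximate. Every difference between the libraries describes these 2 libraries and was not tested as an effect of the genotype.

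Pancreatic polypeptide cells, or PP-cells, are a minor endocrine cell type of the islet, placed mostly at its rim and most frequent in the part of the pancreas next to the duodenum. Their hormone, released after meals, acts on receptors of the neuropeptide Y family and lowers appetite and exocrine secretion. Ppy and Pyy, which encodes peptide YY, are neighbours on the chromosome and belong to the same peptide family. TBL1X and TBL1XR1 are subunits of the NCoR/SMRT corepressor complexes, which recruit the deacetylase HDAC3 to repressed genes.

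Sequencing gave 7067 deposited barcodes with 241434108 UMIs for the control and 5833 with 185062206 UMIs for TBL/RβKO, and barcodes that passed the filter had medians of 40626 and 27425 UMIs. The libraries shared 14 barcode tags among these, of which 1 belonged to a control member. Barcodes with markers of non-endocrine cells, chosen whatever their hormones, had median Ppy levels of 3.24 (control) and 2.97 (TBL/RβKO) per 10000 UMIs. The part of free RNA in these medians was not tested. These medians were far below the 150 that the rule asked for, although 14 of 288 non-endocrine barcodes of TBL/RβKO reached it and 0 of 158 in the control did, which allows a share of up to 2.31%.

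In the control library 138 of 4747 barcodes were members, or 2.91% (interval 2.45 to 3.43). In the TBL/RβKO library the members were 241 of 4179, or 5.77% (interval 5.08 to 6.52), which was 2.86 percentage points more (interval 2.02 to 3.73). The share of a library depends on how many other cells were captured. Insulin barcodes (β barcodes in the plots), with 1000 or more insulin UMIs per 10000 and the other hormones under their limits, numbered 2272 in the control and 515 in TBL/RβKO. Glucagon (α) barcodes, with 300 or more Gcg, numbered 998 and 1197. Somatostatin (δ) barcodes, with 150 or more Sst, numbered 89 and 157 without Ppy and 144 and 250 with it. Per 100 glucagon barcodes there were 13.8 members in the control (interval 11.5 to 16.5) and 20.1 in TBL/RβKO (interval 17.5 to 23.1). Per 100 somatostatin barcodes, with or without Ppy, there were 59.2 in both libraries (intervals 47.6 to 73.4 and 50.3 to 69.6).

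The levels of Ppy among the members differed in shape between the libraries. Ppy per 10000 UMIs ranged from 337 through a median of 4116 to 5916 in control members, and from 153 through 3325 to 5719 in TBL/RβKO members. In the control, 129 of 138 members (93.5%) held 2000 or more, 6 held between 1000 and 2000, and 3 held less than 1000. In TBL/RβKO, 164 of 241 members (68.0%) held 2000 or more, 12 lay between, and 65 (27.0%, interval 21.5 to 33.0) held less than 1000. The share under 1000 was 24.8 points larger in TBL/RβKO (interval 18.2 to 30.9). These limits were chosen after the levels had been seen, and they cut a range of Ppy rather than separate cell types.

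**Figure D1:**
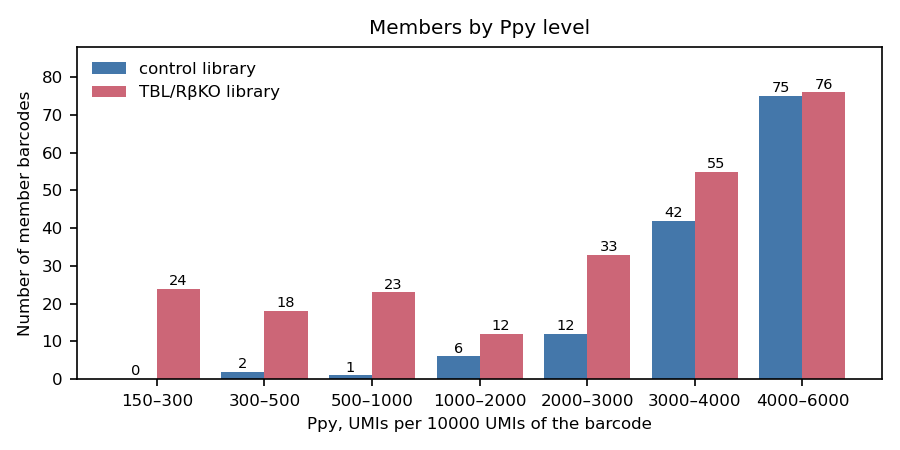
Number of member barcodes (vertical axis) in each range of Ppy, in UMIs per 10000 UMIs of the barcode (horizontal axis), with 1 bar for the control and 1 for the TBL/RβKO library. The bars are alike in the range from 4000 to 6000 (75 and 76 barcodes), whereas the ranges under 1000 held 3 control and 65 TBL/RβKO barcodes.

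Near the threshold, the lowest control member held 337 and the highest control barcode that missed only the Ppy limit held 40.7, so that the control left a wide gap. In TBL/RβKO there was no gap. The lowest member held 153, the highest barcode that missed the limit held 148, 9 barcodes lay between 100 and 150, and 8 members lay between 150 and 200. The share of members at 2000 or more among all kept barcodes was 2.72% in the control and 3.92% in TBL/RβKO, a difference of 1.21 points (interval 0.464 to 1.97). Per 100 glucagon barcodes there were 12.9 of them in the control (interval 10.7 to 15.5) and 13.7 in TBL/RβKO (interval 11.6 to 16.1), and these intervals overlapped. Per 100 somatostatin barcodes there were 55.4 (interval 44.3 to 68.9) and 40.3 (interval 33.4 to 48.4).

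Most Ppy-rich barcodes held a further hormone. Of the barcodes with 150 or more Ppy, 138 of 675 in the control (20.4%, interval 17.5 to 23.7) and 241 of 1440 in TBL/RβKO (16.7%, interval 14.8 to 18.8) were within the limits of the other 3 hormones. Insulin at or over its limit was found in 20.4% of control and 45.9% of TBL/RβKO barcodes with Ppy. Glucagon was found at or over its limit in 41.8% and 31.3%, and somatostatin in 44.0% and 38.9%. At 2000 Ppy or more the order of the libraries turned, with 129 of 184 control barcodes (70.1%) and 164 of 195 TBL/RβKO barcodes (84.1%) holding Ppy alone, a difference of 14.0 points (interval 5.55 to 22.3).

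The label of PP-cells was then checked against Pyy, Tspan8, Folr1 and Etv1, which the rule had not used. Tspan8 encodes a tetraspanin of the cell surface, Folr1 a folate receptor and Etv1 a transcription factor of the ETS family. All 4 transcripts were detected in 132 of 138 control members (95.7%) and in 187 of 241 TBL/RβKO members (77.6%). At 2000 Ppy or more the shares were 96.9% and 96.3%. Below 1000 Ppy, 20 of 65 TBL/RβKO members (30.8%) had all 4. These transcripts are not particular to the members, since all 4 were detected in 56.2% of control and 63.1% of TBL/RβKO somatostatin barcodes without Ppy, and in 72.2% and 70.0% of those with Ppy. Most Ppy-high members of both libraries had all 4 markers, but the markers alone do not part them from somatostatin barcodes. Low somatostatin is set by the rule and is no check of the label. Most of the Ppy-low members of TBL/RβKO lacked at least 1 of the markers, and they are named here by their Ppy level alone.

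Pyy (11:101997502-101998658, GRCm39, minus strand) lies next to Ppy (11:101990756-101992145, minus strand). Pyy per 10000 UMIs ran from 70.2 through a median of 987 to 2466 in control members and from 3.73 through 884 to 3006 in TBL/RβKO members. At 2000 Ppy or more its medians were 1012 and 1004. In the Ppy-low members of TBL/RβKO the median was 597, and 27 of 65 (41.5%) lay under the 10th percentile of the Ppy-high members of the same library. In the same library the median was 4.98 in insulin and 3.07 in non-endocrine barcodes, but 659 in somatostatin barcodes without Ppy and 616 in those with it, so that a level of Pyy like that of the Ppy-low members was also found in somatostatin barcodes.

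Tspan8 (10:115652737-115685798, plus strand) parted the Ppy-high from the Ppy-low members of TBL/RβKO more clearly. It ran from 1.07 through 6.80 to 18.8 per 10000 in control members and from 0 through 5.94 to 19.2 in TBL/RβKO members. Its medians were 6.76 and 8.41 at 2000 Ppy or more, and 0.302 in the Ppy-low members, of which 60 of 65 (92.3%) lay under the 10th percentile of the Ppy-high members. The 3 Ppy-low control members held between 8.30 and 8.69, inside the range of the Ppy-high members. Tspan8 was also found in somatostatin barcodes. Its medians there were 3.35 (control) and 3.67 (TBL/RβKO) without Ppy, and 4.61 and 4.32 with Ppy. Folr1 (7:101507537-101520014, minus strand) had medians of 2.04 and 2.02 in the Ppy-high members and 0.244 in the Ppy-low members of TBL/RβKO. Etv1 (12:38828851-38920483, plus strand), which was also abundant in glucagon and somatostatin barcodes, had medians of 2.40, 2.19 and 0.839.

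Detection was compared at equal depth, with every barcode thinned to 3000 UMIs outside the hormones. Tspan8 was then found in 97.0% of Ppy-high and 18.5% of Ppy-low members of TBL/RβKO (100% and 55.4% unthinned), against 5.24% of its insulin barcodes (30.5% unthinned). In summed CPM, Tspan8 stood at 863, 143 and 13.7 in these 3 sets. Folr1 was found in 62.8% and 12.3% (98.8% and 60.0% unthinned), against 5.05% of insulin barcodes (31.8% unthinned). In thinned somatostatin barcodes of TBL/RβKO, Tspan8 was found in 71.3% of those without Ppy and 72.8% of those with it. Folr1 was found there in 27.4% and 20.0%. The shares of Ppy-low members with these transcripts lay nearer to those of insulin barcodes than to those of Ppy-high members, whereas by fold in CPM their Tspan8 lay nearer to the Ppy-high members. Before thinning, the median depth outside the hormones was 19006 UMIs in the Ppy-high members, 31874 in the Ppy-low members and 36727 in insulin barcodes.

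**Figure D2:**
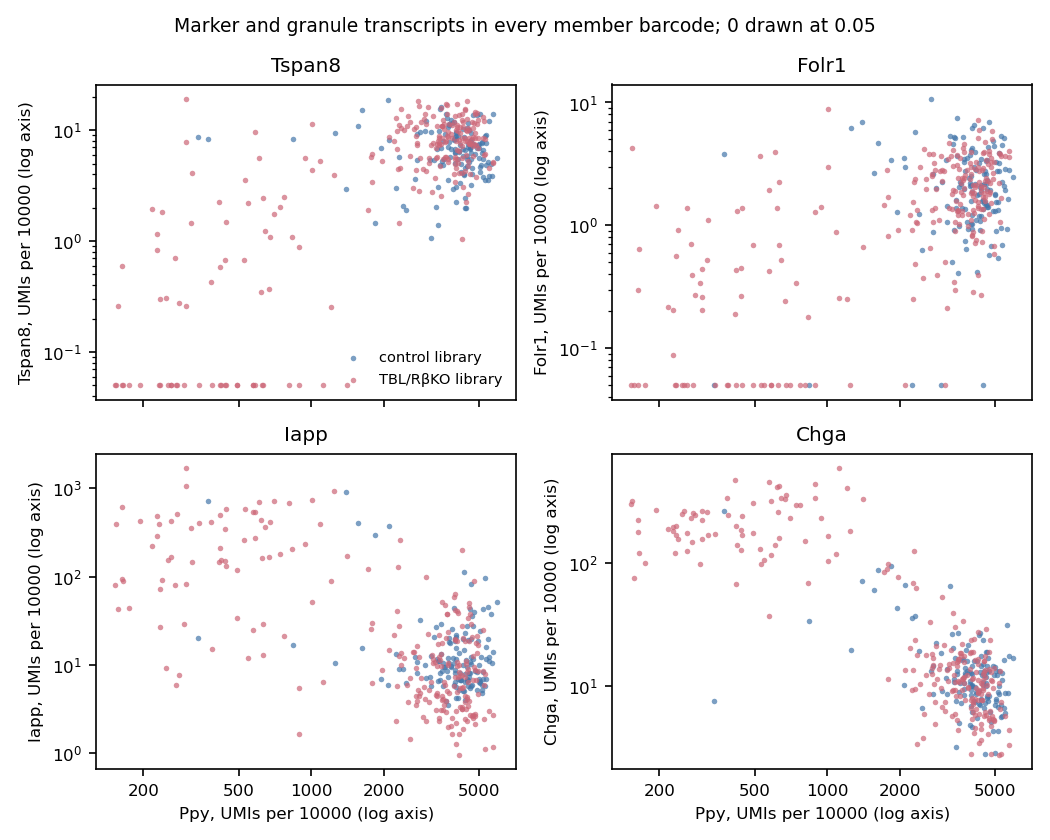
Each point is 1 member barcode, with Ppy on the horizontal axis and Tspan8, Folr1, Iapp or Chga on the vertical axis, all in UMIs per 10000 on log axes, with 0 drawn at 0.05. Blue control points crowd above 2000 Ppy, and the red TBL/RβKO points under 1000 Ppy sit low for Tspan8 and Folr1 and high for Chga, where all 65 lay above the 90th percentile of the Ppy-high members of their library.

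To see which genes set the members apart from other endocrine barcodes, UMIs were summed per library and class and scaled to a total of 1000000 (counts per 1000000, CPM). Cd9 (6:125437210-125471778, minus strand), a tetraspanin like Tspan8, was the only gene outside the 4 hormones that was at least 4-fold higher in members than in insulin, glucagon and somatostatin barcodes of both libraries. It was 1 of 2049 genes with 50 CPM or more in both libraries, or 0.0488%. Since the members were chosen from the same barcodes, these values describe the members and are no test. In Ppy-high members Cd9 stood at 142 CPM in the control and 109 CPM in TBL/RβKO, against 1.23, 20.6 and 8.30 CPM in the 3 other classes of the control.

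The other leading genes, ranked by the smallest of their ratios to the 3 classes, include surface, adhesion and metabolic proteins. Lrrtm4, a synaptic adhesion protein, stood at 55.4 and 97.5 CPM in the Ppy-high members of the control and of TBL/RβKO. Chrm3, a muscarinic acetylcholine receptor that stimulates secretion, stood at 428 and 437 CPM, beside 308 CPM in insulin and 45.1 CPM in glucagon barcodes of the control. Further genes of the list were Lrmda, Folr1, Limch1, Tspan8, Lurap1l, Pyy, Fxyd3, Ugt2b34, Cntnap5b, Depp1 and Gmpr.

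**Figure D3:**
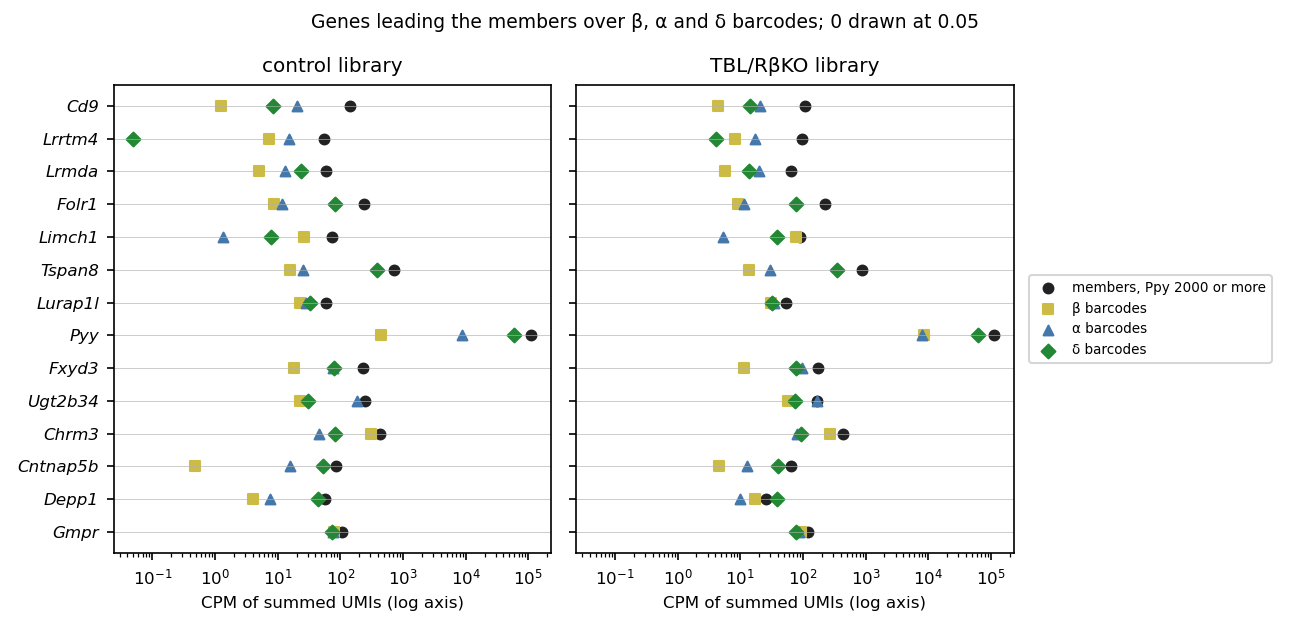
CPM of summed UMIs (log axis, 0 drawn at 0.05) of 14 leading genes in Ppy-high members (black circles) and in insulin (squares), glucagon (triangles) and somatostatin (diamonds) barcodes, with 1 panel per library. Cd9 and Folr1 stand well to the right of the other classes in both panels, whereas Depp1 of the TBL/RβKO members (25.7 CPM) lies below its somatostatin barcodes (38.3 CPM).

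Of the other endocrine classes compared, the Ppy-high members were closest to somatostatin barcodes that also held Ppy. In the control, 6.59% of genes were past 2-fold between these 2 sets in either direction, compared with 8.72% against somatostatin barcodes without Ppy, 8.998% against glucagon and 15.1% against insulin barcodes. The shares in TBL/RβKO were 7.78%, 8.85%, 11.1% and 17.9%. Hhex, a transcription factor that marks somatostatin cells, stood at 0.593 CPM in Ppy-high control members and 219 CPM in control somatostatin barcodes.

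Between the libraries, a gene was called when its log2 CPM ratio, taken relative to the median gene, was past 1 in either direction and its counting interval lay wholly on the same side of that median. Over all members, 210 of 5433 genes with a mean of 20 CPM or more were called higher in TBL/RβKO (3.87%) and 48 lower (0.883%). The median gene was 0.29 higher on the log2 scale. Hormone genes held 41.2% of the UMIs of control members and 27.7% of those of TBL/RβKO members. Among members at 2000 Ppy or more, 23 of 5011 genes were called higher (0.459%) and 13 lower (0.259%), and the median gene was 0.10 higher. Of the genes called over all members, 15 of the higher (7.14%) and 7 of the lower (14.6%) were also called among the Ppy-high members.

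The largest rises over all members came from genes near 0 in the control. Pcp4l1 had 0 UMIs in control members and 118 CPM in TBL/RβKO members, at least 210-fold higher when the control is set to 3 counts. It stood at 6.82 CPM in the Ppy-high and 354 CPM in the Ppy-low members of TBL/RβKO. S100a6, a calcium-binding protein, stood at 1.12 CPM in control members and 161 CPM in TBL/RβKO members, a log2 ratio of 7.16 (interval 6.03 to 8.61). Its ratio was 3.25 among Ppy-high members, where it stood at 0.791 and 7.54 CPM, below the level at which genes were tested.

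Car8, a protein of the carbonic anhydrase family, had a log2 ratio of 6.17 over all members and 3.85 among Ppy-high members. Eps8, an actin-binding adaptor, had ratios of 5.32 and 2.06. Kcnip1, a subunit of A-type potassium channels, had ratios of 4.46 and 1.28, although it was detected in a smaller share of the Ppy-high members of TBL/RβKO (20.7%) than of the control (28.7%). Prr29, Prkg2, Pparg, Gucy2c and Fam163a completed the named rises. For each of these 10 genes the CPM of the Ppy-low members was over that of the Ppy-high members.

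The named falls were smaller. Fstl4, a follistatin-like protein, fell from 80.6 to 22.9 CPM over all members (log2 −1.82, interval −2.07 to −1.57) and from 76.8 to 33.2 CPM among Ppy-high members (log2 −1.21). Sytl2, a synaptotagmin-like protein of vesicle transport, had log2 ratios of −1.68 and −1.11. Id3, an inhibitor of basic helix-loop-helix transcription factors, had ratios of −1.23 and −1.11, and Ntm, a neuronal adhesion protein, −1.35 and −0.96. These 4 genes were called in both sets. Pcdh15, Cd200l1, Calb1, Pdgfd and Fam184b were called over all members only, with ratios from −0.73 to −0.63 among Ppy-high members.

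C1qa, a complement gene of macrophages, was the remaining named fall, with a log2 ratio of −1.35 over all members. It was lower in the insulin (−1.34), glucagon (−0.84) and somatostatin (−0.76) barcodes too. The 5 macrophage markers summed to 48.6 CPM in control and 19.7 CPM in TBL/RβKO members, and to 4939 and 1710 CPM in the non-endocrine barcodes of the libraries. The part of free macrophage RNA in this value was not tested.

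**Figure D4:**
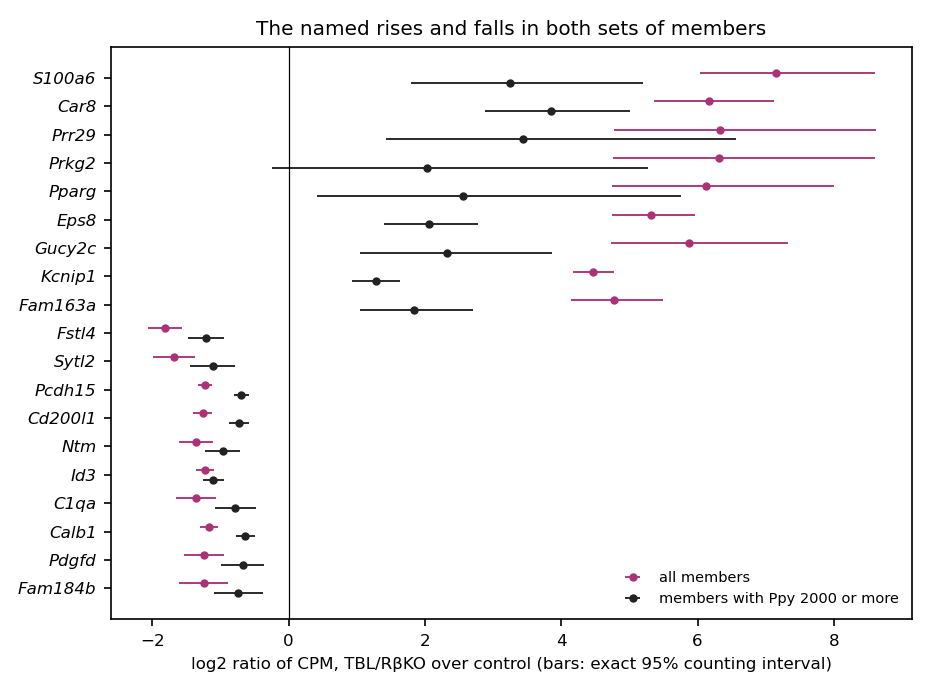
Log2 ratio of CPM, TBL/RβKO over control (horizontal axis), of the named rises and falls, over all members (purple) and over members with Ppy of 2000 or more (black), with bars for the exact 95% counting interval. Pcp4l1, with 0 control UMIs, is not drawn, and the black points lie nearer to 0 than the purple ones for each of the 19 genes.

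The insulin genes are bounded by the rule. Over all members, Ins1 was called lower in TBL/RβKO (1735 and 702 CPM, log2 −1.31) and Ins2 was not (5279 and 4351 CPM, log2 −0.28). Among Ppy-high members Ins1 stood at 1730 and 185 CPM (log2 −3.23) and Ins2 at 5305 and 1441 CPM (log2 −1.88). Glucagon barcodes, also chosen with insulin under 300 per 10000, had like ratios of −3.15 and −1.78. Their median insulin, Ins1 and Ins2 together, was 97.2 per 10000 in the control and 18.2 in TBL/RβKO. The Ppy-high members had medians of 69.2 and 12.5, and non-endocrine barcodes 81.4 and 14.3. Per 10000 of all UMIs, the median insulin of Ppy-high members was thus below that of the non-endocrine barcodes in both libraries. Hormone genes held 42.6% (control) and 38.6% (TBL/RβKO) of the UMIs of Ppy-high members, which lowers their other levels per 10000. The order was not examined on a scale without hormones, and the part of free RNA in the insulin was not tested. Across all 28 gene lists, Ins1 and Ins2 were the only listed genes called among Ppy-high members. Few calls go with the share over all genes, of which 0.459% were called higher and 0.259% lower in these members.

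Tbl1x and Tbl1xr1 were not lower in the members. Tbl1x stood at 84.9 CPM in control and 299 CPM in TBL/RβKO members (log2 1.82, interval 1.67 to 1.96), and Tbl1xr1 at 34.9 and 135 CPM (log2 1.95, interval 1.73 to 2.18). Among Ppy-high members the ratios were 0.14 and 0.20, from 78.7 to 87.1 CPM and from 33.2 to 38.0 CPM. The kit reads the 3′ end of transcripts, and the deleted exons were not given in the sources used here, so these counts do not check the deletion. Ncor1, which encodes the corepressor NCoR, had a ratio of 0.50 over all members and was not called.

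Cre transcripts gave 0 UMIs in the control. In TBL/RβKO they were detected in 2 of 241 members (0.830%), 1 of which was among the 65 Ppy-low members. They were detected in 120 of 515 insulin barcodes (23.3%) and 9 of 1197 glucagon barcodes (0.752%) of TBL/RβKO. Of 2 Cre features, only 1 was counted. Ins1, whose locus holds Cre, stood at 1692 CPM in the Ppy-low members and 59550 CPM in the insulin barcodes. Cre detection therefore does not show which cells had recombined, and recombination was not tested.

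Genes were also counted by functional lists, which were chosen with earlier results of these data known. Of 16 tested granule and prohormone genes, 3 were higher and none lower, beside 3.87% and 0.883% of all genes. Chga, a granin that drives granule formation, stood at 1474 and 8295 CPM (log2 2.49), Chgb at 1081 and 3016 CPM (log2 1.48), and Pcsk1, a prohormone convertase, at 38.1 and 136 CPM (log2 1.84). Pcsk2, another prohormone convertase, stood at 2284 and 1981 CPM and was not called. Among Ppy-high members 0 of 16 were called, beside 0.459% of all genes called higher and 0.259% lower. The ratios there were 0.06 for Chga, 0.22 for Chgb and −0.32 for Pcsk1.

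Of 17 tested islet transcription factors, 2 were higher and 1 was lower, beside 3.87% and 0.883% of all genes. Neurod1, a factor of endocrine differentiation, stood at 75.4 and 189 CPM, and Mlxipl, which encodes the glucose-responsive factor ChREBP, at 19.1 and 101 CPM. Pax6, needed for all islet cell types, stood at 153 and 211 CPM and was not called. The median log2 ratio of the list was 0.47 over all members and 0.06 among Ppy-high members, beside 0.29 and 0.10 over all genes.

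Over all members, 3.87% of all genes were called higher and 0.883% lower. Of 14 tested ion channel genes, Cacna1a, the pore of P/Q-type calcium channels, was called. It stood at 181 and 849 CPM (log2 2.23) over all members and 170 and 242 CPM (log2 0.51) among Ppy-high members. Of 9 tested receptors, Glp1r, the receptor of the incretin GLP-1, was higher at 14.8 and 188 CPM, Galr1, a galanin receptor, was higher at 10.1 and 43.0 CPM, and Ffar4, a receptor of long-chain fatty acids, was lower at 41.6 and 25.2 CPM. None of these 4 was called among Ppy-high members, where Glp1r (13.6 and 11.9 CPM) and Galr1 (9.30 and 16.0 CPM) fell below the level for testing.

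Among other peptide hormones, Iapp, the islet amyloid polypeptide of β-cells, stood at 2536 and 10665 CPM over all members and 1849 and 1647 CPM among Ppy-high members. Gast, which encodes gastrin, had 1 UMI in control members and stood at 150 CPM in TBL/RβKO members. Ghrl, the hormone of epsilon cells, stood at 2.81 and 1.88 CPM. None of 13 tested exocytosis genes, 15 endoplasmic reticulum stress genes, 9 antigen presentation genes, 21 oxidative phosphorylation genes and 6 heat-shock genes was called in either direction. Of 13 immediate early genes only Klf6 was called, as lower. Over all genes 3.87% were called higher and 0.883% lower. Lists this short would hold few or no calls at that share, so these counts do not set the lists apart.

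Within TBL/RβKO, the 65 Ppy-low members were set beside the 164 Ppy-high members. Relative to a median gene 0.67 higher on the log2 scale, 641 of 6014 genes were higher in the Ppy-low members (10.7%) and 502 were lower (8.35%). The split was made on Ppy, so these values describe the 2 ranges and are no test. All 5 PP-cell markers were lower, Ppy among them by construction, whereas 5 of 6 tested β-cell markers were higher. These 5 were Ins1, Ins2, Iapp, Pdx1 and Ucn3. Their insulin had a median of 98.8 per 10000, against 12.5 in Ppy-high members and 14.3 in non-endocrine barcodes, while staying under the limit of 300.

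Iapp was at 29288 CPM in the Ppy-low and 1647 CPM in the Ppy-high members, beside 49061 CPM in insulin and 32235 CPM in somatostatin barcodes of TBL/RβKO. Per barcode it ran from 1.62 through a median of 168 to 1691 per 10000 in the Ppy-low members and from 0.954 through 7.07 to 262 in the Ppy-high members. The ranges overlapped, with 51 of 65 (78.5%) over the 90th percentile of the Ppy-high members. Chga ran from 37.0 through 202 to 482 in the Ppy-low and from 2.72 through 10.6 to 127 in the Ppy-high members, and all 65 lay over that 90th percentile. Chgb had medians of 50.7 and 8.18.

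Over all genes, 10.7% were higher and 8.35% lower in the Ppy-low members. Among 13 tested ion channel genes, 3 were higher in the Ppy-low members (among them Cacna1a and Kcnma1) and 4 were lower (Abcc8, Scn3a, Kcnk16 and Kcnk3). Among 11 tested receptors, 5 were higher (Glp1r, Gipr, Sstr3, Adra2a and Galr1) and 2 lower (Ffar1 and Ffar4). Cacna1a stood at 2152 CPM against 242 CPM, Glp1r at 565 against 11.9 CPM, Tbl1x at 752 against 87.1 CPM and Tbl1xr1 at 344 against 38.0 CPM. Of 14 tested glucose metabolism genes, 6 were higher, among them Eno1, Pkm, G6pc2, Pcx and Txnip. Of 18 tested transcription factors, Neurod1, Rfx6, Rfx3, Mlxipl and Pdx1 were higher and 3 were lower, among them Isl1, at 104 against 199 CPM, and Etv1.

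Immediate early genes, which respond within minutes to stimulation and to cell dissociation, were lower together. All 13 tested members of the list were called lower, beside 8.35% of all genes, with a median log2 difference of −1.72. Fos stood at 387 against 1962 CPM, Egr1 at 104 against 642 CPM and Jun at 233 against 747 CPM. Of 8 tested antigen presentation genes, H2-K1, H2-D1, B2m and H2-T23 were lower, beside the same share of all genes. None of 21 oxidative phosphorylation genes was called.

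Genes named in earlier results as high in β-cells of TBL/RβKO were high here too. Of these 9, 8 were called higher, beside 10.7% of all genes. This list was picked from these libraries and is not independent evidence. Defb1, a β-defensin, stood at 1158 CPM in the Ppy-low and 44.3 CPM in the Ppy-high members, with medians of 10.1 and 0 per 10000. Gast stood at 476 and 1.08 CPM, Glul, which encodes glutamine synthetase, at 908 and 45.8 CPM, and Neurog3, the factor of endocrine progenitors, at 52.8 CPM against 0 UMIs. Neurog3 was not particular to these members, since somatostatin barcodes held 74.7 CPM in the control and 60.9 CPM in TBL/RβKO.

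**Figure D5:**
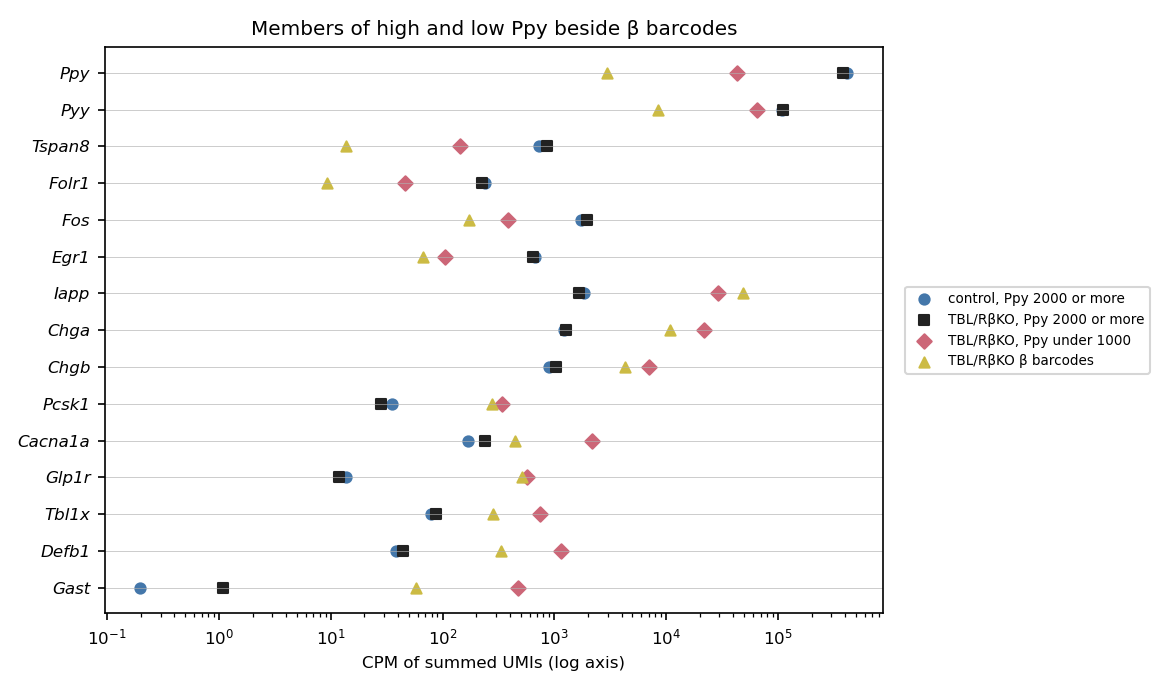
CPM of summed UMIs (log axis) of 15 genes in Ppy-high members of the control (circles) and of TBL/RβKO (squares), in Ppy-low members of TBL/RβKO (diamonds) and in its insulin barcodes (triangles). The Ppy-high sets nearly coincide for Pyy, Folr1 and Chga, while the Ppy-low set lies near the insulin barcodes for Iapp, Pcsk1 and Glp1r and above both for Chga, Cacna1a, Tbl1x and Gast.

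Of the classes compared, the Ppy-low members lay closest in their profile to insulin barcodes of the same library. Genes past 2-fold in either direction made up 6.96% against insulin barcodes, 11.8% against somatostatin barcodes with Ppy, 13.8% against those without, 17.9% against glucagon barcodes and 19.0% against Ppy-high members. Across 5759 genes, which are not independent replicates, the log2 levels correlated with those of insulin barcodes with r = 0.88. The r was 0.82 with somatostatin barcodes with Ppy, 0.79 with those without, 0.71 with Ppy-high members and 0.69 with glucagon barcodes. These comparisons held 5996 to 6802 genes. Barcodes with Ppy and insulin both at or over their limits were not compared, although they made up 661 of 1440 TBL/RβKO barcodes with Ppy. Insulin per 10000 UMIs reached 295.5 in TBL/RβKO members, and the lowest value recorded over the limit was 310.6. In the control these values were 249.6 and 383.7. Whether the Ppy-low members lay closer to barcodes with both hormones was not tested.

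The Ppy-low members also differed from insulin barcodes. Mafa, a factor of mature β-cells, stood at 1.60 CPM against 169 CPM, Slc2a2, the glucose transporter GLUT2, at 6.39 against 105 CPM, and G6pc2, an islet glucose-6-phosphatase, at 44.8 against 452 CPM. Higher were Chga (22007 against 10867 CPM), Cacna1a (2152 against 441 CPM) and Defb1 (1158 against 330 CPM). Pyy stood at 65694 against 8453 CPM. The insulin limit is part of the rule, so that genes which follow insulin differ between these sets in part by choice.

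Other measures moved with the Ppy-low members. Their median mitochondrial share was 5.63%, against 2.03% in Ppy-high members and 3.51% in insulin barcodes of TBL/RβKO. Their median of 6089 detected genes exceeded the 5005 of Ppy-high members, and 35 of 65 (53.8%, interval 41.0 to 66.3) had 6000 genes or more, the upper limit that the study set. Among Ppy-high members 15.5% in the control and 15.2% in TBL/RβKO did. The stromal markers summed to 226 CPM in the Ppy-low and 7.72 CPM in the Ppy-high members, against 7341 CPM in non-endocrine barcodes, and 1 of the 241 members met the definition of a non-endocrine barcode. No doublet caller was run, and the part of doublets, damaged cells and free RNA in these values was not tested. In the 3 Ppy-low control members the mitochondrial share was between 6.80% and 8.61% and the number of genes between 3017 and 4220.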

How the data were processed

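Droplet libraries (Chromium 3′ chemistry, version 3.1) were made from pooled islets, 1 library per group. The deposited matrices hold raw UMI counts of 22383 features, produced by the authors with Cell Ranger 7.1.0 and GRCm39 per the submitters' processing notes. No free RNA was removed here and no doublet caller was run. Hormone levels were UMIs per 10000 of a barcode, and comparison barcodes held 1000 or more insulin, 300 or more Gcg or 150 or more Sst within the other limits. Non-endocrine barcodes held at least 3 markers of a non-endocrine class summing to 20 or more. UMIs were summed per class as CPM. Ratios had exact conditional binomial intervals, shares exact binomial (Clopper-Pearson) intervals, and differences of shares Newcombe intervals. The calling rule was checked on simulated counts. Members and lists were chosen with earlier results of these data known. Named genes were the 10 largest rises and falls by interval bound, the 15 leading genes, the targeted genes, Cre and markers, and per list its most abundant and called members. Genes set against insulin barcodes, and those in the closing observations, were chosen after their values were seen. Some listed genes are not reported here. Positions came from GENCODE M39 (GRCm39). Analyses used Python 3.11.15, numpy 2.4.6, scipy 1.17.1, pandas 2.3.3 and matplotlib 3.10.9.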

Additional observations from a re-analysis of the deposited data

Results flagged for a closer look

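Barcodes outside the filter were not used in any comparison. Of those that failed it, 7 of 2320 in the control (0.302%, exact interval 0.121 to 0.621) and 45 of 1654 in TBL/RβKO (2.72%, exact interval 1.99 to 3.62) met the same hormone limits, a share above that of the control. The 45 barcodes of TBL/RβKO had medians of 339 Ppy UMIs per 10000, 7590 UMIs and 2357 genes, and 26 had too few genes while 31 had too large a mitochondrial share. The 7 control barcodes had a median of 3934 Ppy UMIs per 10000. The intervals cover counting error only, and the difference between the libraries was not tested.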

How the results depend on the processing

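With fewer than 6000 genes, the member shares were 3.94% and 6.96% in control and TBL/RβKO, the one-hormone shares 28.2% and 27.6%, and 112 genes were higher and 16 lower. At 300 Ppy or more the one-hormone shares were 28.3% and 22.2%. With the other hormones under 50% of their limits, the TBL/RβKO member share was 5.00% and its one-hormone share 14.5%. CPM without hormones and mitochondrial genes gave 2 genes 4-fold over all classes. With any UMI, 805 genes were higher and 291 lower, and without centring on the median gene 374 and 18. Limits of 1000 and 2000 Ppy were added after seeing the data. They gave TBL/RβKO member shares of 4.21% and 3.92%, differences of 1.37 and 1.21 points, TBL/RβKO shares with 6000 genes of 17.0% and 15.2%, 31 and 23 genes higher and 11 and 13 lower. The one-hormone shares were 53.6% and 58.3% at 1000 and 70.1% and 84.1% at 2000, so their difference turned from −3.71 to 4.71 and 14.0 points. The difference in the share with 6000 genes became 0.749 and −0.260 points. In the latter 2 settings barcodes of low Ppy drop out by construction, and elsewhere the cause was not tested. The other 37 values of this kind kept their direction and size, as did 194 of 224 values of named genes.

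No paired analysis was possible because each group has 1 library. Leaving out a replicate was not possible either, and the depth sets the counting error alone.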

Other observations

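Among the Ppy-high members, some genes not discussed above differed between the libraries, and they were chosen after their values were seen. Fgb, a fibrinogen chain, stood at 21.96 CPM in the control and 118 CPM in TBL/RβKO (log2 2.43, exact 95% counting interval 2.14 to 2.74), and was detected in 28.7% and 59.8% of these members. Its log2 ratios were 3.28 in insulin and 2.05 in glucagon barcodes, and −1.91 (interval −3.63 to −0.35) in somatostatin barcodes, which went the other way. Socs3, an inhibitor of cytokine signalling, stood at 20.0 and 59.2 CPM, with log2 ratios of 1.57 in Ppy-high members, 0.99 in insulin, 1.37 in glucagon and 2.04 in somatostatin barcodes. Il1r1, the receptor of interleukin-1, stood at 81.3 and 180 CPM, with ratios of 1.14, 0.59, 0.90 and 0.54 in the same order. Cebpd, a C/EBP transcription factor, stood at 11.5 and 28.7 CPM, Bcl3, a regulator of NF-κB, at 12.1 and 31.1 CPM, and Serping1, the inhibitor of complement C1, at 29.1 and 85.3 CPM. Fgl2, a fibrinogen-like protein, stood at 28.1 and 110 CPM. The ratios of the classes come from the same libraries and are given side by side only.

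Lower in TBL/RβKO among the Ppy-high members were Nell1, a secreted glycoprotein, at 59.7 and 21.7 CPM (log2 −1.46), Cntnap2, a neuronal adhesion protein, at 39.8 and 17.1 CPM (log2 −1.22), and Depp1 at 56.8 and 25.7 CPM (log2 −1.15). The ratio of Depp1 was 2.08 in insulin, 0.38 in glucagon and −0.22 in somatostatin barcodes. Gstm1, a glutathione transferase, stood at 175 and 91.4 CPM (log2 −0.93) and was detected in 89.9% and 83.5% of these members.

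Against the insulin barcodes of TBL/RβKO, the Ppy-low members held more Mctp2 (95.5 against 4.46 CPM), a calcium-binding membrane protein, Ambp (225 against 14.9 CPM), the precursor of alpha-1-microglobulin and bikunin, and Arg1 (93.9 against 8.92 CPM), the cytosolic arginase. They held less Nupr1 (81.1 against 769 CPM), a stress-induced nuclear protein, Pdyn (10.8 against 146 CPM), which encodes prodynorphin, and Spp1 (3.60 against 203 CPM), which encodes osteopontin. The insulin limit of the rule separates these sets, so the values are descriptions.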
